A study of Mus musculus with 2 samples.

Results

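The genes described here are 9 genes of retinoic acid metabolism and binding, of 32285 genes in the count matrices: Rdh10, Aldh1a1, Aldh1a2, Aldh1a3, Cyp26a1, Cyp26c1, Crabp1, Crabp2 and Rarb. They were chosen by name, and all 9 have a row in both matrices. Both libraries hold single cells of mouse peripheral retina at stage E13.5, sorted for TdTomato. The albino library came from 3 pooled embryos whose strain is labelled Swizz ICR. The pigmented library came from another 3 pooled embryos labelled Tyrc2j, which is the name of an albino allele of tyrosinase and goes against that library's title. Embryos of both libraries carried α-Cre, a Cre driven by a Pax6 enhancer that acts in the peripheral retina, and the TdTomato reporter it turns on. With 1 library per background, pigmentation, strain, embryo pool, sex make-up and library cannot be told apart, and no difference between the libraries has a replicate check.

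Retinoic acid is made from vitamin A. Rdh10 oxidises retinol to retinaldehyde, and the enzymes of the Aldh1a family oxidise retinaldehyde to retinoic acid. The Cyp26 enzymes break it down, the Crabp proteins bind it in the cytoplasm, and receptors such as Rarb carry its signal to DNA. In the embryonic mouse retina Aldh1a1 is known from the dorsal side, Aldh1a3 from the ventral side and the Cyp26 enzymes from a zone between them, while Aldh1a2 is known from the mesenchyme around the eye.

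Rarb and Cyp26a1 are textbook targets of retinoic acid, and their promoters are shown because they hold the receptor's direct repeat. The motif, GTTCA and GTTCA again after 6 bases of any kind (N), was searched on both strands in RefSeq promoter windows of build GRCm38.p6, 250 bases before to 50 bases after each gene's start, where 25 of 32851 windows (0.0761%) hold it. Of the 9 genes, 6 have such a window and 4 of those (Aldh1a1, Aldh1a2, Cyp26c1 and Crabp1) hold no match. Aldh1a3, Rdh10 and Crabp2 have no window. The Cyp26a1 stretch is chr19:37697754-37697797 on the plus strand and ends just before the gene's annotated start. The Rarb stretch is chr14:16575513-16575528 on the minus strand, 52 to 37 bases before the RefSeq start and inside an exon of another annotated transcript. Capitals mark the match, which lies on the opposite strand at Cyp26a1. A match is a description of these letters and not a measured binding site.
Cyp26a1: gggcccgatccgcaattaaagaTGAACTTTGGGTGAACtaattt
Rarb: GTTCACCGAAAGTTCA

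The albino library kept 3457 cells and the pigmented library 5737, with median depths of 11175 and 10340 UMIs (unique molecular identifiers, each a counted transcript). Clusters were named by marker genes after all 9 genes had been left out of the clustering. Ciliary margin (CMZ)-like cells numbered 282 in the albino and 669 in the pigmented library, retinal progenitor (RPC)-like cells 1067 and 1998, neurogenic-like cells 643 and 1175, ganglion cell (RGC)-like cells 691 and 556, and mesenchyme-like cells 131 and 234. RGC-like cells were 19.99% of albino and 9.69% of pigmented cells. Cells with Xist and no Y-linked UMI were 96.0% of albino and 29.2% of pigmented cells, so the pools differ in sex. Levels below are counts per 1000000 (CPM) of the summed UMIs of a class, ratios are albino over pigmented, and brackets and ranges beside them are 95% intervals that cover counting error only.

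Macrophage-like cells, which should lack these genes, were looked at to gauge the background, from few cells and UMIs. In macrophage-like cells, 29 in the albino and 26 in the pigmented library, Aldh1a1 had 1 UMI in each library, at 3.50 and 4.41 CPM, and 3.45% and 3.85% of the cells had a UMI. Those cells also carried summed RPC markers of 70.0 CPM in the albino and 96.9 CPM in the pigmented library, against 3080 and 3566 CPM over all cells. Mesenchyme-like cells had more Aldh1a1, 35 UMIs (19.7 CPM) in the albino and 112 UMIs (32.1 CPM) in the pigmented library. The part of retinal RNA in these values was not tested.

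Aldh1a1, the dorsal retinaldehyde dehydrogenase, was concentrated in the CMZ-like cells of both libraries. It stood at 1075 CPM in albino CMZ-like cells (1043 to 1107) and 846.0 CPM in pigmented ones (828 to 864), a ratio of 1.27 (1.23 to 1.32). A UMI of Aldh1a1 was found in 73.4% of albino and 71.2% of pigmented CMZ-like cells. Of the Aldh1a1 UMIs, 49.1% in the albino and 62.9% in the pigmented library lay in CMZ-like cells, although these were 8.16% and 11.7% of all cells. The level varied widely from cell to cell. With each cell thinned to 5800 UMIs, 35.1% of albino and 42.0% of pigmented CMZ-like cells had no Aldh1a1 UMI, while 33.2% and 24.3% had 10 or more.

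In RPC-like cells Aldh1a1 stood at 209.3 CPM in the albino and 118.0 CPM in the pigmented library, a ratio of 1.77 (1.68 to 1.88). It was found in 37.0% of the albino and 28.5% of the pigmented RPC-like cells, and in 30.4% and 22.4% at equal depth. CMZ-like cells exceeded RPC-like cells 5.13-fold in the albino (4.89 to 5.40) and 7.17-fold in the pigmented library (6.85 to 7.50). Neurogenic-like cells had 46.2 CPM in the albino and 53.7 CPM in the pigmented library, and RGC-like cells 4.05 and 6.63 CPM. Among RGC-like cells 5.36% of the albino and 5.58% of the pigmented ones had a UMI of Aldh1a1. The small RPE-like class, 16 albino and 45 pigmented cells, had no Aldh1a1 UMI in the albino and 37 UMIs (84.6 CPM) in the pigmented library. The interval of that ratio reaches up to 0.157. Summed RPE markers of this class also differed, at 11002.5 CPM in the albino and 6167.4 CPM in the pigmented library. The part of class make-up in the RPE-like ratios was not tested.

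Aldh1a7, the closest copy of Aldh1a1 and its nearest coding gene (49488 bases away on chromosome 19), was also higher in CMZ-like than in RPC-like cells. It had 47.3 CPM in albino and 30.8 CPM in pigmented CMZ-like cells (ratio 1.54, 1.28 to 1.84) and 9.42 and 7.58 CPM in RPC-like cells. The annotated transcripts of Aldh1a1 and Aldh1a7 share no 25-base word in their last 500 bases, where 3' reads fall.

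**Figure D1:**
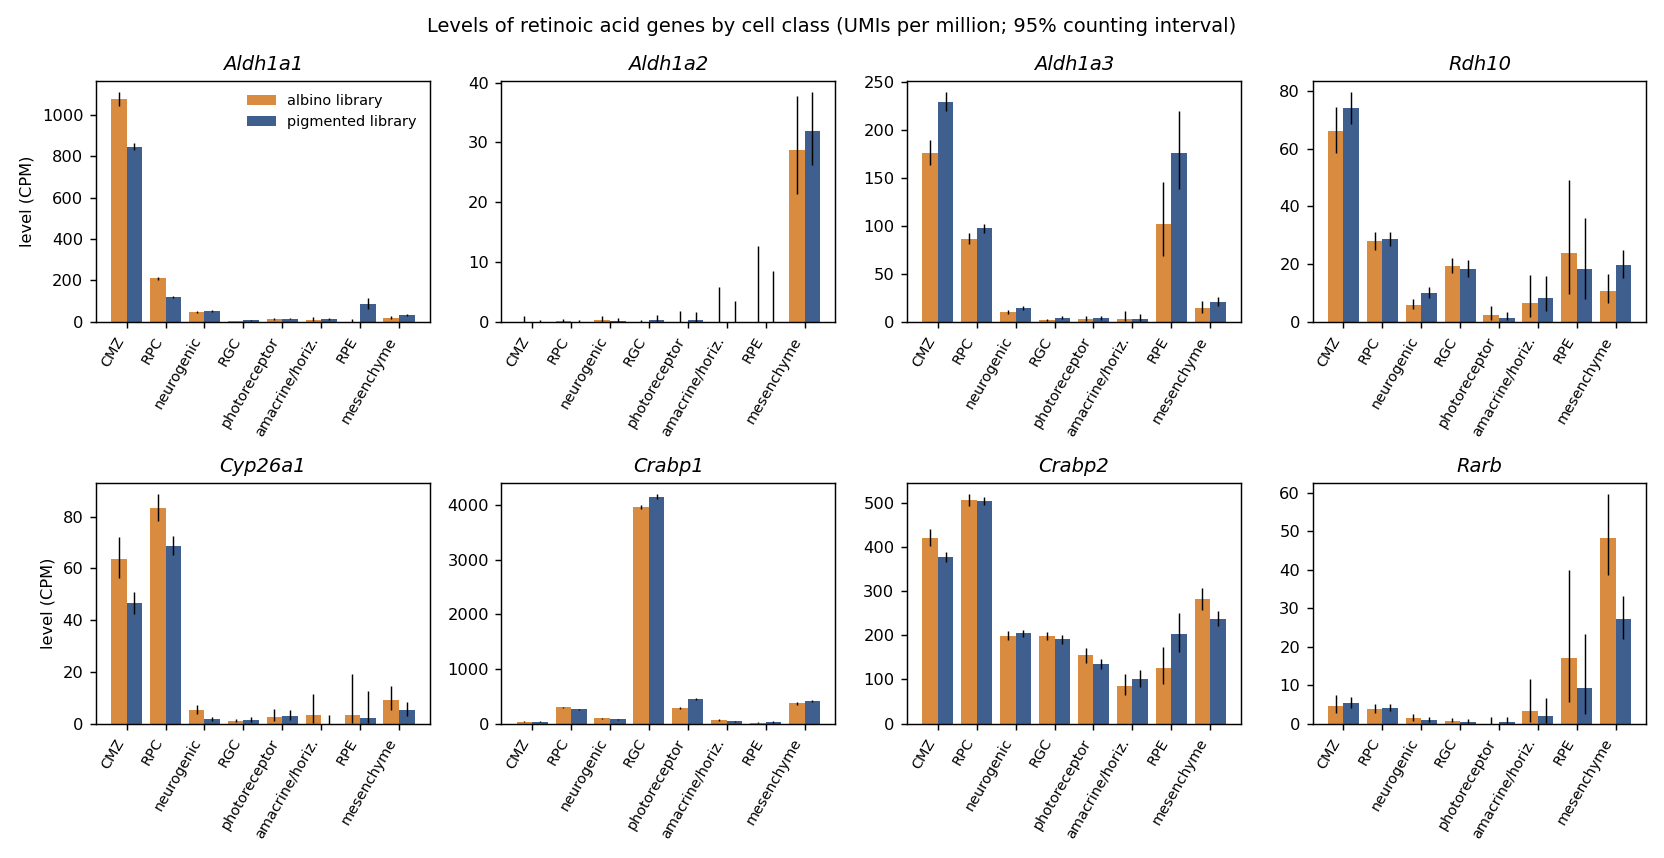
Level of 8 of the genes (Cyp26c1 is left out) in each of 8 cell classes, as counts per 1000000 of summed UMIs on linear axes, with the albino library left of the pigmented one and 95% counting intervals as lines. Aldh1a1 reaches 1075 CPM in albino and 846.0 CPM in pigmented CMZ-like cells, Crabp1 peaks in RGC-like cells, and Aldh1a2 and Rarb in mesenchyme-like cells.

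Aldh1a3, the ventral retinaldehyde dehydrogenase, was likewise higher in CMZ-like than in RPC-like cells, but its levels were lower in the albino library. It had 176 CPM in albino and 229.5 CPM in pigmented CMZ-like cells (ratio 0.767, 0.704 to 0.835), and 45.7% and 55.9% of the cells had a UMI. In RPC-like cells it had 86.8 CPM in the albino and 97.3 CPM in the pigmented library (ratio 0.891, 0.826 to 0.962). CMZ-like over RPC-like cells gave 2.03 in the albino and 2.36 in the pigmented library. RPE-like cells had 102 CPM (30 UMIs) in the albino and 176 CPM (77 UMIs) in the pigmented library, a ratio of 0.582 (0.368 to 0.898). Neurogenic-like cells had 10.1 and 14.5 CPM, and RGC-like cells 1.93 and 3.93 CPM. Macrophage-like cells had no Aldh1a3 UMI in the albino library and 2 UMIs (8.81 CPM) in the pigmented one. Aldh1a1 was higher and Aldh1a3 lower in the albino library in both CMZ-like and RPC-like cells, but in thinned RPC-like cells the lower Aldh1a3 value was within counting error.

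Aldh1a2, the third retinaldehyde dehydrogenase, was a mesenchymal transcript here. Of its 57 UMIs in the albino and 121 UMIs in the pigmented library, 51 and 111 lay in mesenchyme-like cells, at 28.7 and 31.8 CPM (ratio 0.900, 0.633 to 1.27). It was found in 13.7% of the albino and 13.2% of the pigmented mesenchyme-like cells. No UMI was found in CMZ-like cells of either library, and RPC-like cells had 1 UMI in each.

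Rdh10, which makes the retinaldehyde that the Aldh1a enzymes use, was higher in CMZ-like than in RPC-like cells in both libraries. It had 66.1 CPM in albino and 73.9 CPM in pigmented CMZ-like cells, a ratio of 0.894 whose interval spans 1 (0.775 to 1.03). RPC-like cells had 27.8 CPM in the albino and 28.6 CPM in the pigmented library. CMZ-like over RPC-like cells was 2.37 in the albino and 2.58 in the pigmented library. Unlike both retinal dehydrogenases, Rdh10 was also found in RGC-like cells, at 19.4 CPM in the albino and 18.2 CPM in the pigmented library and in 21.4% and 21.8% of the cells. Neurogenic-like cells were below both RPC-like and RGC-like cells in Rdh10, at 5.95 and 9.99 CPM (ratio 0.595).

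Cyp26a1, which degrades retinoic acid, had its highest level among retinal classes in RPC-like rather than CMZ-like cells. It stood at 83.4 CPM in albino and 68.7 CPM in pigmented RPC-like cells (ratio 1.21, 1.12 to 1.32), in 28.3% and 24.6% of the cells. CMZ-like cells had 63.8 CPM in the albino and 46.5 CPM in the pigmented library (ratio 1.37, 1.18 to 1.60), in 22.3% and 19.7% of the cells. CMZ-like over RPC-like cells was 0.766 in the albino and 0.676 in the pigmented library, the reverse of Aldh1a1, Aldh1a3 and Rdh10. Of the Cyp26a1 UMIs, 59.9% in the albino and 65.2% in the pigmented library lay in RPC-like cells. Neurogenic-like cells had 38 UMIs (5.26 CPM) in the albino and 21 UMIs (1.72 CPM) in the pigmented library, and RGC-like cells 1.06 and 1.35 CPM. The adjacent gene Cyp26c1, which lies 4400 bases from Cyp26a1, had no UMI in 3457 albino cells, which allows up to 0.0868% of cells with a UMI, counting 3 cells as the limit of a count of 0. It had 3 UMIs in the pigmented library, 2 in CMZ-like and 1 in RPC-like cells.

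Crabp1, a cytoplasmic binding protein of retinoic acid, lay mostly in ganglion cell-like cells. RGC-like cells had 3972 CPM in the albino and 4158 CPM in the pigmented library (ratio 0.955, 0.942 to 0.969), in 71.5% and 67.6% of the cells. Of the Crabp1 UMIs, 80.5% in the albino and 74.1% in the pigmented library lay in them. The direction of that small difference was not stable, since the log2 ratio was 0.025 in thinned cells and 0.0063 with every cell weighted equally. The class holds 2 clusters, of 406 and 285 albino and 358 and 198 pigmented cells, and Crabp1 was among the 10 leading genes of the smaller one, next to Sst, Sncg and Nrn1. At 5800 UMIs per cell, 37.4% of albino and 41.2% of pigmented RGC-like cells had none, while 35.3% and 32.5% had 10 or more.

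Over all cells Crabp1 had 1144 CPM in the albino and 690 CPM in the pigmented library, a ratio of 1.66 (1.64 to 1.68). RGC-like cells were 19.99% of albino and 9.69% of pigmented cells, and the part of that share in the ratio was not tested. RPC-like cells had 299 CPM of Crabp1 in the albino and 261 CPM in the pigmented library, and neurogenic-like cells 97.7 and 76.7 CPM. CMZ-like cells had 33.3 CPM in the albino and 33.5 CPM in the pigmented library, 0.111 and 0.128 of the RPC-like level. Photoreceptor-like cells had 285 CPM in the albino and 452 CPM in the pigmented library (ratio 0.630). Surface ectoderm-like cells had more, 1137 CPM in the albino and 1696 CPM in the pigmented library, 3.81 and 6.49 of the RPC-like level. They also carried RGC markers (below), and the part of retinal RNA in their Crabp1 was not tested. Mesenchyme-like cells, at 367.5 and 412.7 CPM, carried summed RGC markers of 536 CPM in the albino and 536 CPM in the pigmented library, and the part of free or captured retinal RNA in that value was not tested.

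Crabp2, the carrier that hands retinoic acid to nuclear receptors, was found in nearly every progenitor, with a ratio close to 1 in RPC-like cells. RPC-like cells had 508 CPM in the albino and 505 CPM in the pigmented library (ratio 1.005, 0.973 to 1.04), with a UMI in 93.9% and 92.3% of the cells. CMZ-like cells had 422 CPM in the albino and 378 CPM in the pigmented library (ratio 1.12, 1.05 to 1.18). Neurogenic-like cells had 200 and 205 CPM and RGC-like cells 199 and 191 CPM. Mesenchyme-like cells had 282 CPM in the albino and 238 CPM in the pigmented library (ratio 1.19, 1.06 to 1.33). Macrophage-like cells had 6.996 and 13.2 CPM from 2 and 3 UMIs.

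Rarb, a retinoic acid receptor that is itself a target of the pathway, was sparse in retina and enriched in mesenchyme-like cells. It had 48.3 CPM (38.7 to 59.7) from 86 UMIs in albino and 27.2 CPM (22.04 to 33.3) from 95 UMIs in pigmented mesenchyme-like cells, a ratio of 1.77 (1.31 to 2.40). A UMI was found in 37.4% of the albino and 23.9% of the pigmented mesenchyme-like cells. Summed markers of other cell types differed between the libraries in this class. Erythroid markers had 69.7 CPM in the albino and 1243 CPM in the pigmented library, and endothelial markers 89.9 and 212 CPM. Their part in the mesenchyme-like ratios was not tested. Mesenchyme-like over RPC-like cells was 12.7 in the albino (8.72 to 18.6) and 6.59 in the pigmented library (4.86 to 8.95). CMZ-like cells had 4.68 and 5.31 CPM and RPC-like cells 3.82 and 4.13 CPM. Restricted to cells with Xist and no Y-linked UMI, the mesenchyme-like log2 ratio for Rarb was -0.21, against 0.83 in all mesenchyme-like cells. That value has no interval here, and only 29.2% of all pigmented cells pass this filter. The part of sex in the difference was not tested. Exons of Rarb overlap those of Top2b on the opposite strand, and no source used here says whether counting was stranded.

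**Figure D2:**
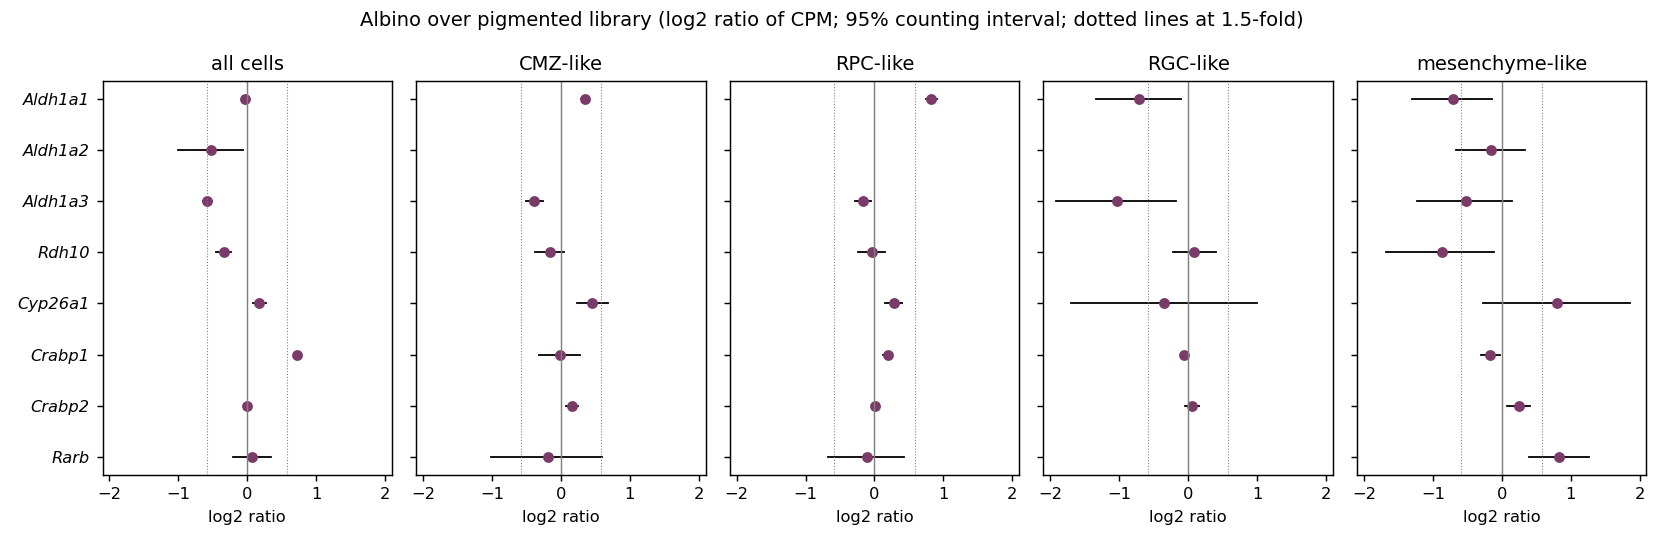
Log2 ratio of CPM, albino over pigmented, for each gene with at least 20 UMIs over both libraries, in all cells and 4 classes, with 95% counting intervals as lines, a line at 0 and dotted lines at 1.5-fold. In RPC-like cells Aldh1a1 lies at 1.77-fold and Crabp2 at 1.005, and in CMZ-like cells all 7 measured genes lie within 1.5-fold of 1.

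Over the libraries the genes were set against all genes with at least 20 UMIs in a class, with a 1.5-fold difference as the mark. In CMZ-like cells 0 of the 7 genes that had enough UMIs were more than 1.5-fold higher or lower in the albino library, where 3.58% of all genes were higher and 4.63% lower. In RPC-like cells 1 of 7, Aldh1a1, was higher and 0 were lower, against 2.14% and 3.16% of all genes. With clusters at resolution 0.6 the log2 ratio of Aldh1a1 was 0.579 there, just under the mark. In neurogenic-like cells 1 of 7 was higher (Cyp26a1) and 1 lower (Rdh10), against 2.16% and 4.25%. Cyp26a1 was sparse there, with 38 albino and 21 pigmented UMIs. Its levels of 5.26 and 1.72 CPM were below those of mesenchyme-like cells (8.99 and 5.16 CPM), and the part of free or captured RNA was not tested. In RGC-like cells 0 of 6 were higher and 2 lower (Aldh1a1 and Aldh1a3), against 2.89% and 3.88%. These 2 were sparse there, with 42 albino and 54 pigmented UMIs of Aldh1a1 and 20 and 32 of Aldh1a3. Their levels were not clearly above those of macrophage-like cells given earlier. In mesenchyme-like cells 2 of 8 were higher (Rarb and Cyp26a1) and 2 lower (Aldh1a1 and Rdh10), against 5.35% and 9.35%. The interval of Cyp26a1 spanned 1 there (0.831 to 3.62), and its log2 ratio lay between -0.18 and 1.89 under other settings. Over all cells 1 of 8, Crabp1, was higher and 0 were lower, against 5.69% and 4.62%.

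Many ratios under 1.5-fold still exceeded counting error, which is small for abundant genes. In CMZ-like cells 3 of 7 genes were higher beyond counting error (Aldh1a1, Cyp26a1 and Crabp2) and 1 lower (Aldh1a3), where 6.29% of all genes were higher and 5.36% lower. In RPC-like cells 3 were higher (Aldh1a1, Cyp26a1 and Crabp1) and 1 lower (Aldh1a3), against 4.13% and 10.1%. In neurogenic-like cells 2 were higher (Cyp26a1 and Crabp1) and 3 lower (Aldh1a1, Aldh1a3 and Rdh10), against 4.47% and 7.09%, though Aldh1a1 stood at a log2 ratio of 0.012 there without doublet removal. In RGC-like cells 0 were higher and 3 lower (Aldh1a1, Aldh1a3 and Crabp1), against 5.20% and 6.89%. Aldh1a1 and Aldh1a3 were near the macrophage-like level there, and 0 were lower in thinned cells. In mesenchyme-like cells 2 were higher (Rarb and Crabp2) and 3 lower (Aldh1a1, Rdh10 and Crabp1), against 4.79% and 6.32%. Over all cells 2 were higher (Crabp1 and Cyp26a1) and 3 lower (Aldh1a2, Aldh1a3 and Rdh10), against 15.6% and 25.5%. Summed RPC markers in mesenchyme-like cells were 547 CPM in the albino and 748 CPM in the pigmented library, which is lower in the albino library as were Aldh1a1 (19.7 against 32.1 CPM) and Rdh10 (10.7 against 19.5 CPM) there. The part of retinal RNA in these values was not tested. In cells with Xist and no Y-linked UMI the mesenchyme-like log2 ratios were 0.24 for Aldh1a1 and 0.33 for Crabp1, higher in the albino library.

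CMZ-like and RPC-like cells were then compared within each library. Of the 7 genes with enough UMIs, 3 (Aldh1a1, Aldh1a3 and Rdh10) were more than 1.5-fold higher in CMZ-like than in RPC-like cells and 1 (Crabp1) was lower, in both libraries. Among all genes 7.72% were higher and 10.4% lower in the albino library, and 8.80% and 13.0% in the pigmented library. Crabp2 was 0.831-fold in the albino and 0.748-fold in the pigmented library. The interval of Rarb spanned 1 in both libraries, at 1.23 and 1.28.

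Co-detection of the enzymes in single cells was then counted. In RPC-like cells Cyp26a1 was found less often in cells with Aldh1a3 than in cells without it. Of albino RPC-like cells with Aldh1a3, 18 of 338 (5.33%) also had Cyp26a1, against 39.0% of those without it, an odds ratio of 0.0883 (0.0505 to 0.146). In the pigmented library the counts were 27 of 677 (3.99%) against 35.1%, an odds ratio of 0.0768 (0.0494 to 0.115). The same held in CMZ-like cells, where 10.1% of albino cells with Aldh1a3 and 32.7% of those without had Cyp26a1 (odds ratio 0.232). The pigmented CMZ-like shares were 9.89% and 32.2% (odds ratio 0.232). Cells with Aldh1a3 were the deeper ones, with a median of 10858 against 9386 UMIs in albino RPC-like cells and 10690 against 8818 in pigmented ones. At 5800 UMIs per cell the RPC-like odds ratios for Aldh1a3 and Cyp26a1 were 0.0954 in the albino and 0.0452 in the pigmented library.

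Aldh1a1 and Aldh1a3 also had odds ratios below 1, yet many CMZ-like cells held both. In CMZ-like cells 38.2% of the albino cells with Aldh1a1 had Aldh1a3, against 66.7% of those without (odds ratio 0.310, 0.169 to 0.556). The pigmented shares were 46.6% and 78.8% (odds ratio 0.236, 0.156 to 0.353). In RPC-like cells the odds ratio of Aldh1a1 and Aldh1a3 was 0.594 in the albino (0.445 to 0.790) and 0.633 in the pigmented library (0.507 to 0.788). Counting only cells with at least 3 Aldh1a1 UMIs as positive, it was 0.197 and 0.198 in CMZ-like cells and 0.335 and 0.385 in RPC-like cells.

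For Aldh1a1 and Cyp26a1 the odds ratio in RPC-like cells was above 1 when 1 UMI counted as positive. Of the albino cells with Aldh1a1, 37.7% had Cyp26a1, against 22.8% of those without (odds ratio 2.05), and in the pigmented library the shares were 34.9% and 20.5% (odds ratio 2.09). At equal depth these odds ratios were 1.84 in the albino and 1.43 in the pigmented library. In CMZ-like cells the odds ratio was 1.35 in the albino library, with an interval that spans 1 (0.674 to 2.85), and 2.66 in the pigmented library (1.58 to 4.68). With at least 3 Aldh1a1 UMIs as the limit and at equal depth, the intervals spanned 1 in albino RPC-like cells (1.195, 0.752 to 1.86) and in CMZ-like cells of both libraries (0.977 and 1.163), but not in pigmented RPC-like cells (1.66, 1.08 to 2.50). The level of Aldh1a1 in CMZ-like cells with Cyp26a1 was 0.728 of that in cells without it in the albino and 0.700 in the pigmented library.

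Counted as combinations, CMZ-like cells held Aldh1a1 alone in 31.2% of albino and 25.4% of pigmented cells, and Aldh1a1 with Aldh1a3 but no Cyp26a1 in 24.8% and 29.0%. Aldh1a3 alone was found in 16.3% of albino and 21.4% of pigmented CMZ-like cells, and Cyp26a1 alone in 3.55% and 1.64%. None of the 3 was found in 5.32% and 4.48%. In RPC-like cells none of the 3 was found in 26.9% of albino and 31.6% of pigmented cells, Aldh1a3 alone in 21.7% and 25.3%, Aldh1a1 alone in 14.8% and 11.3%, and Cyp26a1 alone in 13.6% and 13.7%. Aldh1a1 with Cyp26a1 made up 13.03% of albino and 9.56% of pigmented RPC-like cells, while Aldh1a3 with Cyp26a1 and no Aldh1a1 made up 0.750% and 0.951%. These shares change with depth. In cells thinned to 5800 UMIs, Aldh1a1 with Aldh1a3 made up 15.8% of albino and 14.6% of pigmented CMZ-like cells, and none of the 3 was found in 11.7% and 13.2%. Aldh1a1 with Cyp26a1 made up 9.32% of albino and 5.16% of pigmented thinned RPC-like cells. A cell without a UMI may still hold the transcript, so these are shares of detection.

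**Figure D3:**
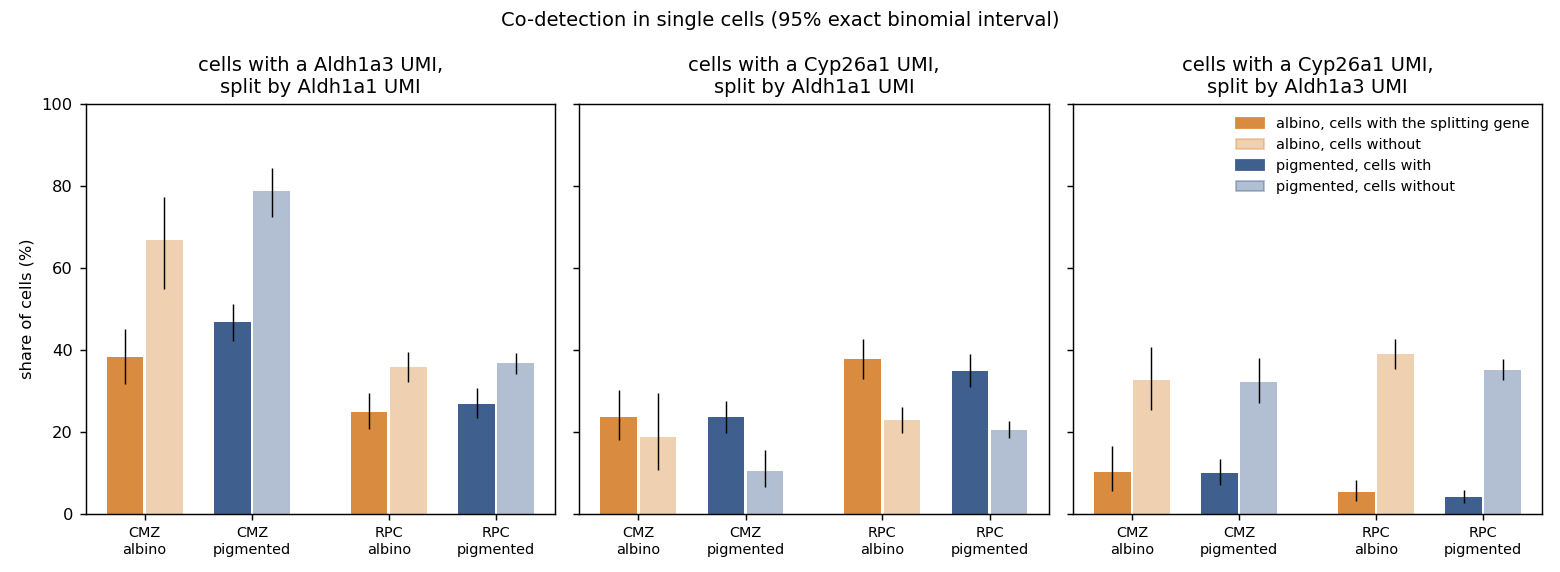
Share of CMZ-like and RPC-like cells with a UMI of 1 enzyme (percent), among cells with a UMI of a second enzyme (dark bars) and cells without (pale bars), albino left of pigmented, with 95% exact binomial intervals. In the right panel Cyp26a1 was found in 5.33% of albino RPC-like cells with Aldh1a3 and 39.0% of those without.

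Cells with a UMI of each enzyme were compared with cells without, within RPC-like cells, for genes that mark position in the retina. Of the 6 dorsal genes (Tbx2, Tbx3, Tbx5, Bmp4, Efnb1 and Efnb2), 5 had enough UMIs. In cells with Aldh1a1, 5 of 5 in the albino and 4 of 5 in the pigmented library were more than 1.5-fold higher, where 3.61% and 3.54% of all genes were. In cells with Aldh1a3, 5 of 5 were lower in both libraries, where 6.05% of all genes in the albino and 5.79% in the pigmented library were. In cells with Cyp26a1, 4 of 5 in the albino and 5 of 5 in the pigmented library were higher, against 4.89% and 4.72% of all genes.

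The ventral genes (Vax1, Vax2, Ephb2, Ephb3, Bmpr1b and Pax2) showed the mirror image for Aldh1a3 and Cyp26a1. With Aldh1a3, 4 of 5 in the albino and 5 of 6 in the pigmented library were more than 1.5-fold higher, against 4.06% and 3.26% of all genes. With Cyp26a1, 4 of 5 and 5 of 6 were lower, against 4.70% and 4.68%. With Aldh1a1, 2 of 5 were lower in the albino library (Vax2 and Bmpr1b), against 4.12% of all genes. In the pigmented library 1 of 6 was lower (Vax2), against 3.82%, and 2 (Vax1 and Pax2) were higher.

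In CMZ-like cells the dorsal genes did not move together with Cyp26a1. In albino CMZ-like cells with Cyp26a1, 1 of 6 was more than 1.5-fold higher (Bmp4) and 2 lower (Tbx5 at 0.410 and Efnb2 at 0.662), against 8.43% and 9.42% of all genes. In the pigmented library 3 were higher (Tbx2, Tbx3 and Efnb1) and 1 lower (Tbx5 at 0.520), against 4.64% and 8.30%. The ventral genes were lower there too, 3 of 4 in the albino and 4 of 5 in the pigmented library.

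Vax2 is a homeobox gene of the ventral retina. It had 187.9 CPM in albino RPC-like cells with Aldh1a3 and 44.7 CPM in those without, and 179.5 and 55.8 CPM in pigmented ones. It had 15.8 CPM in albino cells with Cyp26a1 and 133 CPM in those without (ratio 0.118), and 15.2 and 133.7 CPM in pigmented ones (ratio 0.114). Tbx5, a dorsal T-box factor, had 32 UMIs in albino RPC-like cells with Aldh1a1 and none in those without, a ratio whose interval starts at 11.05. In pigmented RPC-like cells Tbx5 had 6.26 CPM with Aldh1a1 and 0.871 CPM without (ratio 7.18). Tbx3 had 59.8 CPM in albino cells with Cyp26a1 and 29.8 CPM in those without (ratio 2.01), and 49.1 and 25.8 CPM in pigmented ones (ratio 1.90).

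**Figure D4:**
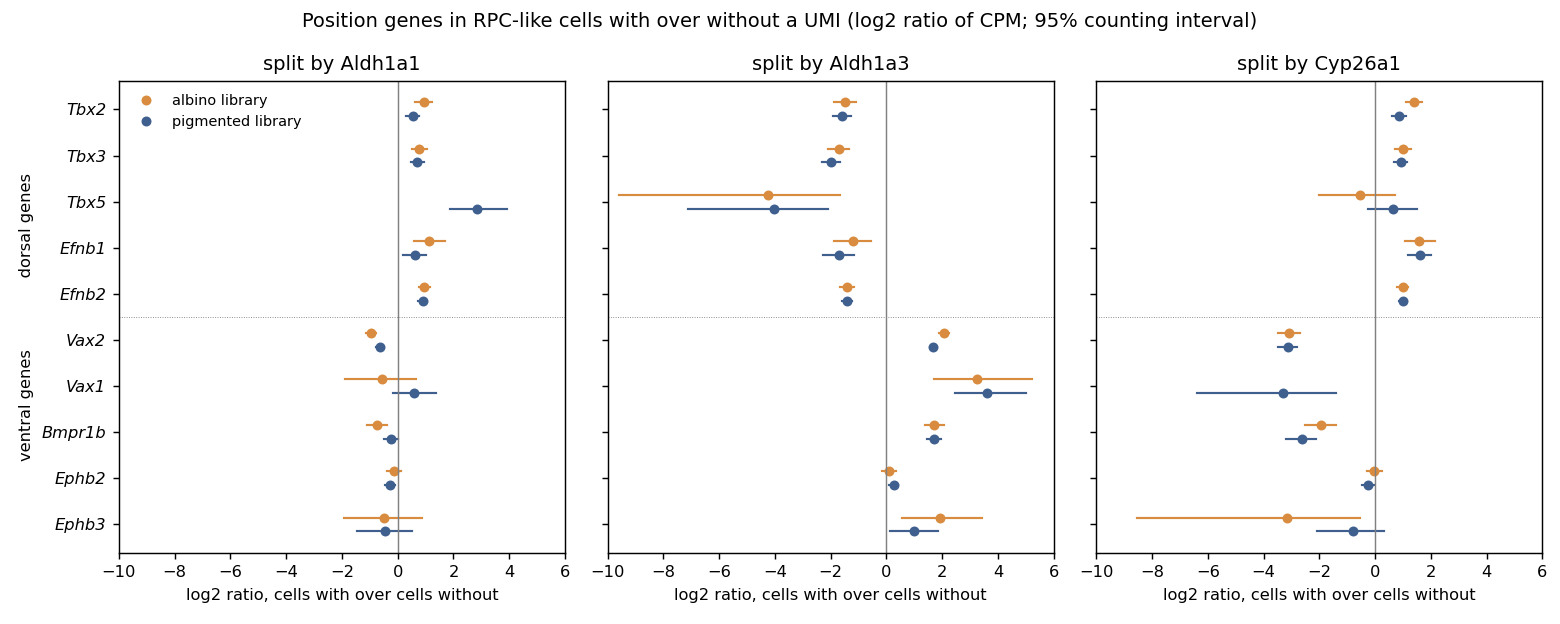
Log2 ratio of CPM in RPC-like cells with over without a UMI of Aldh1a1, Aldh1a3 or Cyp26a1, for dorsal and ventral position genes, albino above pigmented, with 95% counting intervals as lines and no point where 1 side had no UMI. Vax2 lies right of 0 for Aldh1a3 and left of 0 for Aldh1a1 and Cyp26a1.

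Genes most like each enzyme were ranked by the ratio of CPM in cells with over without a UMI of it, taking the lower interval bound of the weaker library, over 7198 genes in CMZ-like and 10006 in RPC-like cells. For Aldh1a1 in CMZ-like cells the first was Efnb2, an ephrin of the dorsal retina, at 109.7 against 8.20 CPM in the albino (ratio 13.4) and 84.6 against 11.2 CPM in the pigmented library (ratio 7.57). It was followed by Tbx5, Dqx1, Tbx3 and Unc5b, a netrin receptor. In RPC-like cells Unc5b was first (6.80 and 5.52), followed by Nr2f2, Gal, Bambi and Aldh1a7. Lowest with Aldh1a1 were Golga3, Col9a1 and Vax2os in CMZ-like and Golga3, Hes5 and Fgf3 in RPC-like cells.

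For Aldh1a3 the 5 genes in CMZ-like cells were Vax2os, the antisense transcript beside Vax2 (30.9 in the albino and 19.9 in the pigmented library), Gm26737, Vax2, Tenm3 and Bmpr1b. In RPC-like cells 4 of these 5 returned, with Smoc1 first (11.5 and 10.0) in place of Gm26737. The gene bodies of Vax2os and Vax2 overlap at one end on opposite strands, where unstranded counting could not tell their reads apart. The 3 genes lowest in CMZ-like cells with Aldh1a3 were Cyp26a1 (0.225 and 0.233), Aldh1a1 (0.304 and 0.333) and Bambi, a BMP pseudoreceptor (0.338 and 0.328).

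For Cyp26a1 the 5 genes in RPC-like cells were Fgf8, a growth factor of the central retina (6.001 in the albino and 5.42 in the pigmented library), Bambi (2.97 and 3.61), Exoc6 (2.94 and 2.70), Efnb1 (3.01 and 3.02) and Plppr1 (2.91 and 3.13). Exoc6 was also first in CMZ-like cells (2.61 and 2.99), and it lies 13739 bases from Cyp26a1 on chromosome 19. It was followed there by Nol4l, Fgf15 (1.78 and 1.65), Dapl1 (1.55 and 1.54) and Slc25a20. Fgf15 and Dapl1 are among the RPC markers. The 3 lowest with Cyp26a1 in RPC-like cells were Vax2os (0.0634 and 0.0524), Aldh1a3 (0.0711 and 0.0576) and Smoc1 (0.0443 and 0.0444).

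**Figure D5:**
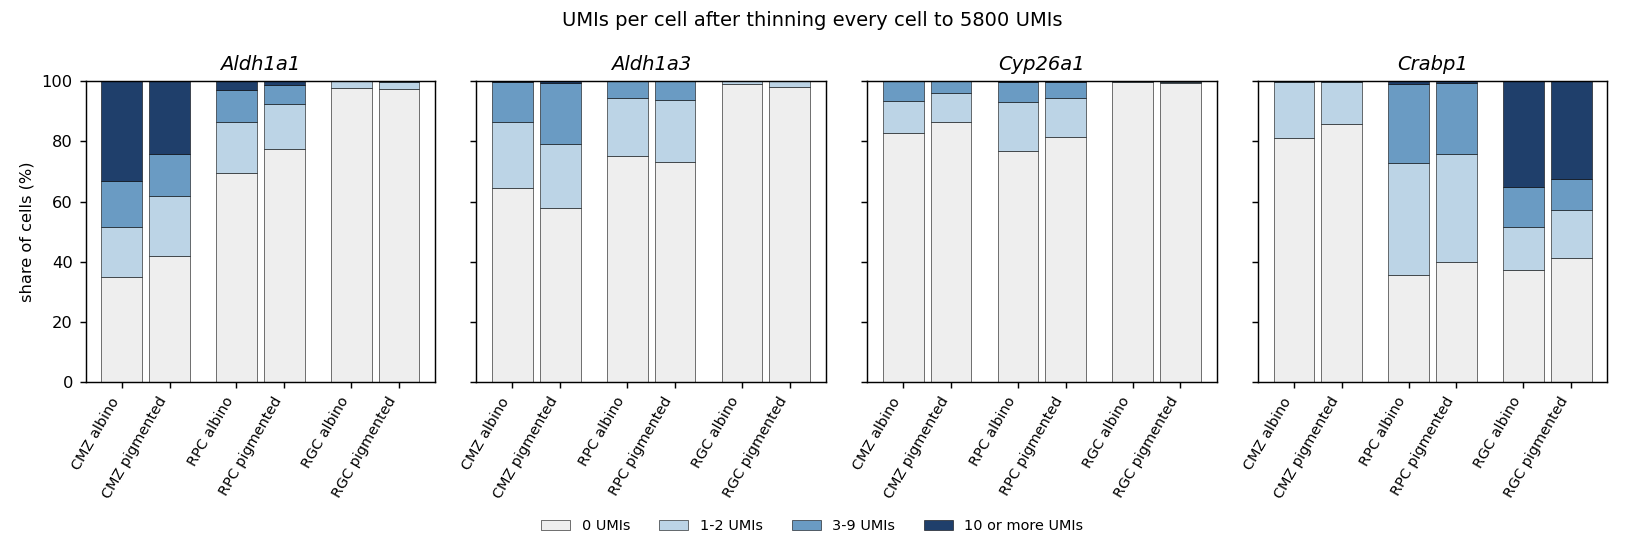
UMIs per cell after thinning to 5800 UMIs, as shares of cells (percent) with 0, 1 to 2, 3 to 9 and 10 or more UMIs of Aldh1a1, Aldh1a3, Cyp26a1 and Crabp1, in CMZ-like, RPC-like and RGC-like cells, albino left of pigmented. In CMZ-like cells 33.2% of albino and 24.3% of pigmented cells had 10 or more Aldh1a1 UMIs.

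Other genes of the pathway were counted by list, with the same 1.5-fold mark and backgrounds as above. In CMZ-like cells 1 of 8 synthesis genes was higher in the albino library and 0 were lower, with a median log2 ratio of -0.04. That gene was Rdh5, a retinol dehydrogenase outside the 9, with 13 UMIs in the albino and 18 UMIs in the pigmented library and an interval that spans 1 (ratio 1.78, 0.801 to 3.84). All 3 removal genes, 4 receptors, 6 co-factors and 10 known target genes with enough UMIs stayed within 1.5-fold there, with medians of 0.04, 0.04, -0.02 and 0.07, against 0.00 over all genes. Of 5 uptake and storage genes 0 were higher and 1 lower there (median -0.08), and all 4 carriers stayed within 1.5-fold (median 0.14). The lists share genes, such as Cyp26a1 among removal and target genes and Rarb among receptors and target genes. In RPC-like cells the 10 target genes measured also stayed within 1.5-fold, with a median of -0.05 against -0.04 over all genes. In neurogenic-like cells 1 of 10 target genes was higher (Cyp26a1, from 38 albino and 21 pigmented UMIs) and 1 lower (Tgm2, from 6 albino and 17 pigmented UMIs). Over all cells 0 of 14 target genes were higher and 1 lower (Tgm2), while 2 of 7 uptake and storage genes were higher and 0 lower. Of the dorsal position genes, 1 of 6 (Tbx3) was more than 1.5-fold higher in albino CMZ-like cells, at 33.8 against 19.7 CPM in pigmented ones (ratio 1.71), and the median log2 ratio of the 6 was 0.45. The 5 ventral genes had a median of 0.12.

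Surface ectoderm-like cells, 84 in the albino and 32 in the pigmented library, gave values that are set beside their retinal markers. Cyp26a1 had 63.8 CPM there in the albino and 21.4 CPM in the pigmented library (ratio 2.98), and Aldh1a3 42.6 and 91.5 CPM (ratio 0.466). The same cells carried summed RPC markers of 2257 CPM in the albino and 2153 CPM in the pigmented library, and RGC markers of 3945 and 2591 CPM. Their surface ectoderm markers summed to less, 512 and 681 CPM, against 65.1 CPM in the albino and 43.7 CPM in the pigmented library over all cells. Over all cells RPC markers summed to 3080 CPM in the albino and 3566 CPM in the pigmented library, and RGC markers to 5034 and 2644 CPM. The albino cells over the class's median depth had a median of 79511 UMIs. The part of retinal RNA in these levels was not tested.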

How the data were processed

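Per the labels' protocols, cells were dissociated with papain, sorted for TdTomato and put through a droplet 3' kit. The deposited files hold UMI counts per gene and barcode, and the authors' barcodes start at 500 UMIs or just above. Cell Ranger is named as version 2.1.1, with build mm10, per the submitters' processing notes, but as 5.0.1 in the matrix headers. Which one made the counts was not settled. The matrices held 3676 albino barcodes with 46271969 UMIs and 6089 pigmented ones with 69965728 UMIs, and 8 barcode sequences occur in both. No column of values was left unused (0 columns).

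Barcodes under 500 genes (110 albino, 134 pigmented) or over 10% mitochondrial UMIs (136 and 188) were left out. Doublets were scored with Scrublet in each library. Its automatic limit called 4 albino barcodes (score 0.494) and 168 pigmented ones (score 0.233). A single score of 0.25 was then set for both libraries after the scores were seen. It removed 56 albino (1.52%) and 146 pigmented barcodes (2.40%), more than the automatic limit in the albino and fewer in the pigmented library. Counts were scaled, log-transformed and reduced to 30 components from 2000 variable genes, with 72 genes left out, the 9 described here among them. Leiden clustering at resolution 1.0 of a 15-neighbour graph gave 24 clusters, both libraries together and without batch correction. Clusters were named from marker lists, and those without a clear lead stayed unnamed. The 9 genes, the lists and the markers were chosen with earlier results of these data known.

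Levels are summed UMIs of a class per 1000000, with exact Poisson intervals. Shares of cells have exact binomial (Clopper-Pearson) intervals and ratios exact conditional ones, all at 95%. There is 1 library per group, so no test was run. A ratio needed 20 UMIs over both groups. Co-detection was also counted with each cell thinned to 5800 UMIs, which left out 387 albino and 549 pigmented cells. Genes named are the 9, the copy Aldh1a7, genes of the fixed lists, and genes among the 5 highest and 3 lowest by likeness to each of Aldh1a1, Aldh1a3 and Cyp26a1. Not all of the latter are named. The count of target genes in mesenchyme-like cells is not reported here. The ratio and co-detection steps were tested on simulated data. The tools were Scanpy 1.11.5, leidenalg 0.10.2, SciPy 1.17.1, NumPy 2.4.6, matplotlib 3.10.9 and scikit-learn 1.9.0 under Python 3.11.15. Promoter sequences are from RefSeq (GRCm38.p6) and gene positions from GENCODE on GRCm38.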

Additional observations from a re-analysis of the deposited data

Results flagged for a closer look

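Ratios between the libraries that pointed opposite ways in 2 cell classes are listed here as values. The differences between classes were not tested. Aldh1a1 was 1.77 in RPC-like cells, higher in the albino library, and 0 in RPE-like cells, where the albino library had no UMI in 16 cells. Crabp1 was 1.27 in neurogenic-like cells and 0.630 in photoreceptor-like cells. Crabp2 was 1.32 in surface ectoderm-like cells, which also carried RPC and RGC markers, and 0.621 in RPE-like cells (37 albino and 89 pigmented UMIs). Summed RPE markers of RPE-like cells differed between the libraries, as given with Aldh1a1, and the part of class make-up was not tested.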

How the results depend on the processing

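No paired analysis was possible because each group has 1 library. Over 57 ratios of the 9 genes, 684 values were computed under other settings. Of these, 582 stayed inside the counting interval of the main value and 93 fell outside it, to either side. Another 9 reversed, which means a change of sign where the main interval excluded 0. Changes of sign in ratios whose main interval spanned 0 are not among the 9. The cause was not tested. With only cells that have Xist and no Y-linked UMI, log2 ratios reversed to 0.85 for Aldh1a2 over all cells and, in mesenchyme-like cells, to 0.24 for Aldh1a1, 0.33 for Crabp1 and -0.21 for Rarb. Without doublet removal Aldh1a1 in neurogenic-like cells became 0.012. With classes from marker scores, Aldh1a1 in RGC-like cells became 0.81 and Crabp1 0.022. Crabp1 in RGC-like cells also became 0.025 in thinned cells and 0.0063 with cells weighted equally.

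Counts of genes beyond counting error changed as follows. Over all cells 1 gene was higher in Xist cells, against 2. In CMZ-like cells 2 were lower with cell cycle genes left out of the clustering and in Xist cells, against 1. In RPC-like cells 0 were lower in thinned cells, against 1. In neurogenic-like cells 1 was higher with at least 1000 genes per cell and when thinned, against 2, and 0 were lower at resolution 0.6 and 1 without cell cycle genes, against 3. In RGC-like cells marker scores gave 2 higher and 1 lower, Xist cells 1 lower and thinned cells 0 lower, against 0 and 3. In mesenchyme-like cells 1 was higher with at least 1000 genes, at resolutions 0.6 and 1.5, without cell cycle genes, in Xist cells and without the 55 albino and 20 pigmented cells over 40000 UMIs (an alternative chosen after seeing the data). None (0) were higher and 1 lower there when thinned, against 2 and 3. Marker scores gave 2 genes more than 1.5-fold lower in CMZ-like than RPC-like cells in both libraries, against 1. In the pigmented library Xist cells, thinning and equal weights gave 2 as well. So did leaving out, for each gene, the cell with the most UMIs of that gene.

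Log2 odds ratios of the pigmented library moved for Aldh1a1 with Aldh1a3 (CMZ-like: -1.24 with marker scores, against -2.08; RPC-like: -0.32 at resolution 0.6 and -1.38 in Xist cells, against -0.66), for Aldh1a1 with Cyp26a1 in RPC-like cells (1.44 in Xist cells and 0.52 thinned, against 1.06) and for Aldh1a3 with Cyp26a1 there (-2.99 at resolution 0.6, -3.03 with marker scores, -4.51 in Xist cells and -4.47 thinned, against -3.70). The log2 ratio of Aldh1a1 in RPC-like cells lay between 0.579 and 0.957, and only the lowest, at resolution 0.6, fell under the 1.5-fold mark. Depth limits Cyp26c1, Aldh1a2 outside mesenchyme-like cells and Rarb in retina, which have few UMIs.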

Other observations

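Other genes of vitamin A handling had levels that differed by class in both libraries. Rarg, a retinoic acid receptor, had 34.3 CPM in albino and 29.0 CPM in pigmented mesenchyme-like cells, which held 61 of 80 albino and 101 of 115 pigmented UMIs of the gene. Dhrs3, which turns retinaldehyde back to retinol, had 15.7 CPM in albino and 9.46 CPM in pigmented mesenchyme-like cells. Cyp26b1, the third degrading enzyme, had 7 UMIs (3.93 CPM) in albino and 59 UMIs (16.9 CPM) in pigmented mesenchyme-like cells, a ratio of 0.233 (0.0896 to 0.510). Erythroid and endothelial markers of this class also differed between the libraries, as given with Rarb. The part of class make-up or sex in this ratio was not tested.

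Stra6, a receptor for the vitamin A carrier in plasma, had 328 CPM in albino and 151 CPM in pigmented RPE-like cells (ratio 2.17, 1.57 to 3.02), from 16 and 45 cells. Summed RPE markers of this class were also higher in the albino library, as given with Aldh1a1. The part of class make-up in this ratio was not tested. Rxrg, a retinoid X receptor, had 31.2 CPM in albino and 39.5 CPM in pigmented photoreceptor-like cells. Fabp5, which can also bind retinoic acid, had 3150 CPM in albino and 2885 CPM in pigmented RGC-like cells.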
